A study of Homo sapiens with 12 samples.

Results

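The combined state of cells labelled C4-2B/Rx2dox and given both dihydrotestosterone (DHT) and doxycycline (dox) was described across genes. The 3 arrays labelled with both agents were compared with the 3 arrays labelled with ethanol vehicle. Members were the genes with a probe above the background limit in at least one of these groups: 11717 of the 12122 genes tested over the whole series, and of 20046 named genes on the array. The rule used the level in each group and not the difference between them. Of the members, 10634 lay above background in both groups by the probe used for the gene, 510 in the DHT with dox group alone and 569 in the vehicle group alone. The remaining 4 passed through a probe that was not the brightest of their gene. A gene above background in only a single group could differ only toward that group.

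All arrays were labelled as C4-2B, a prostate cancer line, here with a RUNX2 gene that dox switches on. Every group, vehicle included, carried this construct and was kept in 5% charcoal-stripped serum, which is low in steroids, for 48 h before treatment. The 4 groups of 3 arrays, described as biological triplicates, were DHT with dox, dox alone, DHT alone and vehicle. The labelled doses, in units not resolved here, were 10 mM for DHT and 250 µg/ml for dox, over 48 h. Dox without the construct was not analysed here, so effects of the drug itself and of the induced gene cannot be told apart.

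DHT is an androgen, a steroid hormone that enters the cell and raises or lowers the transcription of its target genes. RUNX2 belongs to the Runt family of transcription factors, drives bone formation, and in cancer of the prostate and the breast has been tied to invasion and spread to bone. The comparison with vehicle takes both agents together, and the interaction of DHT and dox tests whether the response to DHT differed with dox.

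The values were linear fluorescence intensities on single-colour bead arrays, and the number of arrays limits the precision. All arrays shared 1 distribution of values, with a median of 137.6. The background limit was 147.5, the 95th percentile of 640 probes for gene families that such cells hardly use. Replicate arrays correlated at 0.9938 to 0.9954 over probes, and arrays with both agents correlated with vehicle arrays at 0.9767 to 0.9809. Of the variance, 55.8% lay on a component that set the dox-labelled arrays apart and 12.2% on one that set the DHT-labelled arrays apart.

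Markers of the labelled tissue were checked first, because most of them were absent. Of 17 prostate luminal markers with a probe, 6 were members. KLK3, the gene for prostate-specific antigen, was above background on 0 of 3 arrays with both agents and 1 of 3 vehicle arrays, and KLK2, FOLH1 and HOXB13 on 0 in both groups. The 6 prostate members summed to 2276 to 2497 intensity units per array with both agents and to 3029 to 3354 on vehicle arrays. Of these 6, 1 rose, 3 fell and 2 were not called. PMEPA1, TMPRSS2, SLC45A3 and MSMB among them were above background on all 12 arrays. Of 16 breast luminal markers, 13 were members, of which 6 rose, 4 fell and 3 were not called. Among all genes tested, 16.6% were called higher and 20.2% lower. The 13 summed to 73407 to 76832 with both agents and to 56626 to 57964 on vehicle arrays. Bright genes weigh most in this sum: TFF1 averaged 22246 and XBP1 17641 with both agents, against 9173 and 10376 in vehicle cells. SCGB2A2 and ANKRD30A, also breast markers, were above background on 0 arrays. What these levels mean for the labelled line was not tested, and groups are called by their labels throughout.

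Both agents together changed a large share of the expressed genes, mostly by small amounts. At an adjusted p of 0.05 in limma, 2008 members were higher and 2443 lower in cells with DHT and dox. These 4451 genes are 38% of members beside 36.8% of all genes tested (16.6% higher and 20.2% lower). The median change was -0.02 on the log2 scale over members as over all genes tested, and the median size of a called change was 0.37. At least 1.5-fold, 365 genes were higher and 470 lower (3.01% and 3.88% of all genes tested, 6.89% together), at least 2-fold 78 were higher and 96 lower, and at least 4-fold 8 were higher and 2 lower. The 3 values of each group did not overlap for 5513 members, or 47.1%, beside 45.8% of all genes tested. Calls depended on brightness: 20.3% of members with a mean intensity under 256 were called, against 45.3% from 256 to 1024, 52% from 1024 to 4096 and 40.4% above that. Background signal was still in the values, so fold changes of dim genes are understated, and with it subtracted 2005 genes passed at least 1.5-fold.

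**Figure D1:**
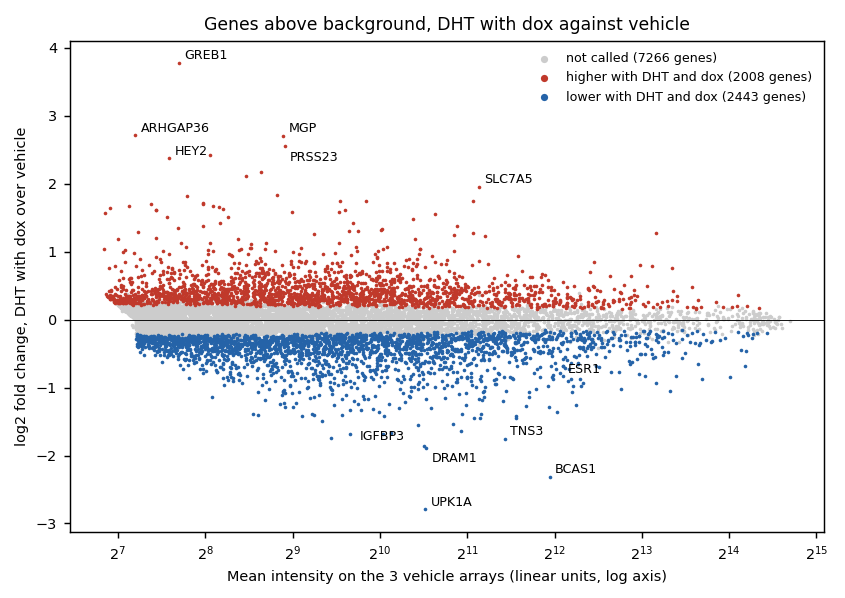
Each point is a gene above background in cells with DHT and dox or in vehicle cells. The vertical axis gives the log2 fold change of DHT with dox over vehicle, the horizontal axis the mean intensity on the 3 vehicle arrays on a log scale, and colours mark genes called at a limma adjusted p of 0.05 (2008 higher in red, 2443 lower in blue). GREB1 stands alone at the top with a change of 3.78, and UPK1A and BCAS1 lie lowest.

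RUNX2, the gene that dox was to induce, was read by 2 probes. The brighter one gave 331, 259 and 322 in cells with DHT and dox, against 210.3, 207 and 226 in vehicle cells. The groups did not overlap, and RUNX2 was higher by 0.50 ± 0.10 on the log2 scale (SE, 3 arrays per group, limma adjusted p = 0.000581). Against DHT alone the same probe differed by 0.08 (limma adjusted p = 0.578), and the second probe averaged 159.0 with both agents and 169.3 in vehicle cells (-0.09). With the mean of both probes the change was 0.20 and not called (limma adjusted p = 0.0609). No source used here says whether either probe reads the induced copy, and these values check nothing of the induction.

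Among the defining androgen targets that were measured, none showed a called rise over vehicle. FKBP5, which encodes a chaperone of steroid receptors and is a classical androgen target, read 941, 902 and 902 with both agents, against 837, 712 and 843 in vehicle cells. The values with both agents all lay above those of vehicle, but the change of 0.20 was not called (limma adjusted p = 0.0774). TMPRSS2, a membrane protease gene whose androgen-responsive promoter is often fused to ERG in prostate cancer, read 461, 418 and 427 with both agents, against 681, 716 and 715 in vehicle cells. TMPRSS2 fell to a mean of 435, below the vehicle range, against 704 in vehicle cells (-0.69 ± 0.09 log2, SE, limma adjusted p = 1.76e-06). Its mean was 319.8 with dox alone and 1255 with DHT alone, so the cells with both agents lay between dox alone and vehicle. SNAI2, a repressor of epithelial genes, read 149, 150.4 and 143 with both agents, against 225, 218 and 217 in vehicle cells, and changed by -0.58 on the log2 scale, while its mean with DHT alone was 306.

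GREB1, an estrogen-induced cofactor of the estrogen receptor, showed the largest change among all members when each gene was read by its brightest probe. It read 2751, 2872 and 2869 in cells with DHT and dox, against 231, 191 and 200.1 in vehicle cells. That is 13.7-fold higher (3.78 ± 0.10 log2, SE, 3 arrays per group, limma adjusted p = 9.23e-17), with a wide gap between the groups. Of the 4 GREB1 probes, 2 others averaged 162.5 and 130.1 with both agents and 123.6 and 124.8 in vehicle cells. They changed by 0.40 and 0.06, and the second was below the limit in both groups. The last was not above the limit in any group mean and was not used. With the mean of its probes GREB1 changed by 1.41, less than MGP (2.83). MGP, which encodes a secreted inhibitor of calcification, read 3234, 3080.2 and 2991 with both agents, against 487, 455 and 487 in vehicle cells, a 6.51-fold rise. ARHGAP36, an activator of Hedgehog signalling, read 973, 1024 and 885 with both agents, against 136, 162 and 142 in vehicle cells, where it was above background on 1 of 3 arrays. Both genes were far above the vehicle values on every array. Genes at both ends of the order were picked among called genes whose groups did not overlap, so that separation is no result. ARHGAP36 passed the filter only through the cells with both agents and could not have been counted as lowered.

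Other genes at the top of the order had varied roles. The serine protease gene PRSS23 was 5.85-fold higher, at 2835, 2824 and 2739.6 with both agents and 507, 423 and 511 in vehicle cells. HEY2, a transcriptional repressor downstream of Notch, was 5.19-fold higher, at 915, 1073 and 1009.7 with both agents and 182, 191 and 204 in vehicle cells. IGSF1, a membrane glycoprotein of the immunoglobulin superfamily, was 5.35-fold higher, and its 2 other probes rose by 2.56 and 1.52 on the log2 scale. The protein kinase A inhibitor gene PKIB rose 4.51-fold and the small heat shock protein gene HSPB8 4.31-fold. SLC7A5, the light chain of a transporter of large neutral amino acids, was the brightest of the 15 most raised genes, at 9123, 8695 and 8298 with both agents and 2335, 2378 and 2037 in vehicle cells. The proto-oncogene MYB rose 3.56-fold, the kallikrein gene KLK11 3.53-fold, and the lysosomal galactosidase gene GLA 3.35-fold. RAB31, a GTPase of vesicle transport, TMEM164 and the growth inhibitor RERG rose by 1.74, 1.74 and 1.72 on the log2 scale. KLK11 rested on 1 of 2 probes: the other changed by -0.19, and with the mean of both the rise was 0.81. The 2 other TMEM164 probes changed by 0.24 and 0.40, and with the mean of its probes TMEM164 rose by 0.79.

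**Figure D2:**
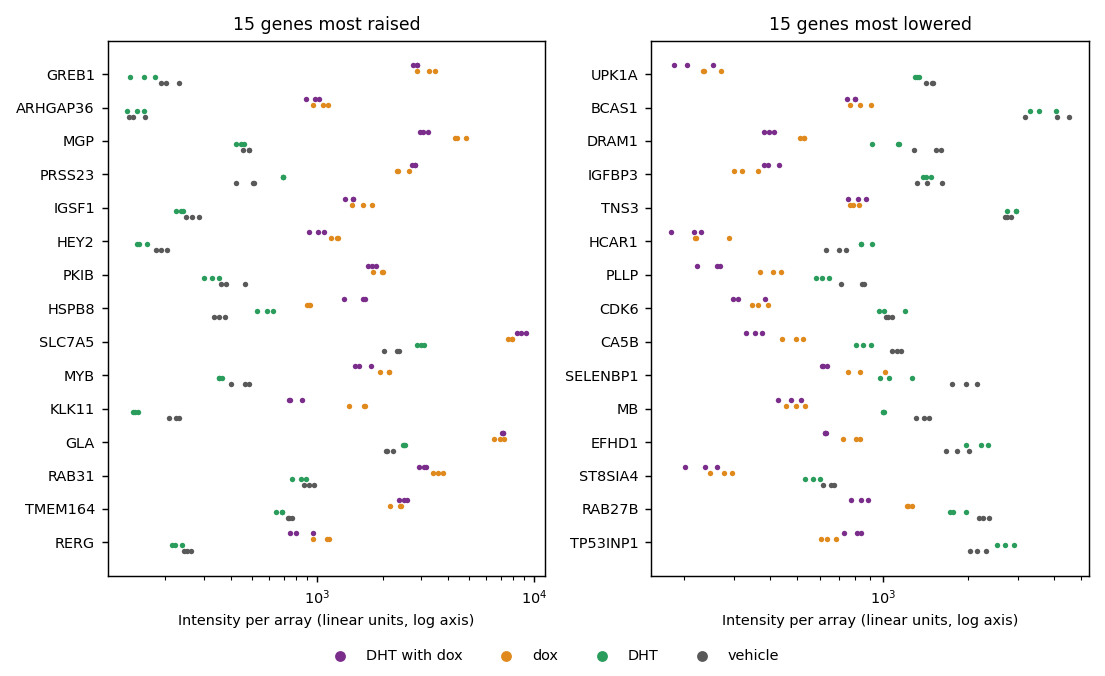
Points show the intensity on each array, on a log axis, for the 15 genes most raised and the 15 most lowered by DHT with dox against vehicle, with the arrays of dox alone and DHT alone beside them. Only genes whose 3 values with both agents lie clear of the 3 vehicle values were eligible. In most genes the values with both agents lie near those with dox alone.

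UPK1A, a tetraspanin of the urothelial plaque, fell the most. It read 205, 253 and 185 in cells with DHT and dox, against 1415, 1495 and 1501 in vehicle cells, 6.92-fold lower (-2.79 ± 0.10 log2, SE, 3 arrays per group, limma adjusted p = 7.75e-15). BCAS1, which marks early myelinating oligodendrocytes and was named for its amplification in breast cancer, read 802, 799.5 and 748 with both agents, against 3168, 4545 and 4117 in vehicle cells. The vehicle values spread widely, yet the lowest was still several times the highest with both agents. DRAM1, a p53 target of the lysosome that promotes autophagy, fell to 398, 415 and 381 with both agents, against 1286, 1542 and 1609 in vehicle cells. IGFBP3, which binds insulin-like growth factors and restrains them, fell to 431, 382 and 393, against 1322, 1430.4 and 1622 in vehicle cells. These 4 genes were 6.92, 4.98, 3.7 and 3.62-fold lower, and separate groups were a condition of the choice.

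The other strongly lowered genes had varied roles. CDK6, a cyclin D-dependent kinase, read 384, 310.3 and 296 with both agents, against 1029, 1042 and 1080.0 in vehicle cells, 3.2-fold lower. The focal adhesion gene TNS3 was 3.38-fold lower, the lactate receptor gene HCAR1 3.33-fold, the myelin proteolipid PLLP 3.23-fold and the mitochondrial carbonic anhydrase gene CA5B 3.17-fold. SELENBP1, a selenium-binding protein, was 3.13-fold lower, the myoglobin gene MB 2.94-fold and the mitochondrial calcium-binding protein gene EFHD1 2.9-fold. The sialyltransferase gene ST8SIA4, the secretory GTPase gene RAB27B and the p53 target TP53INP1 changed by -1.49, -1.45 and -1.44 on the log2 scale. RAB27B changed by -0.78 with the mean of its probes. All 15 most lowered genes were above background on every array of both groups.

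Promoters of these genes were searched for the core RUNX motif, because the construct encodes a RUNX factor, in the RefSeq windows from 250 bases before to 50 after the gene start (GRCh38.p14). No window was used here for GREB1, MGP and RERG among the most raised genes, or for BCAS1, HCAR1, SELENBP1 and TP53INP1 among the most lowered. The letters TGTGGT, on either strand, were in 2 of 12 windows of the most raised genes and in 0 of 11 of the most lowered, beside 9.12% of 9401 members' windows and 13.1% of 27305 windows in all. The shorter estrogen motif TGACCT, on either strand, was in 0 of 12 and in 2 of 11 (TNS3 and MB), beside 9.74% of members' windows and 13.9% of all. The full estrogen element GGTCANNNTGACC and the androgen element GNACANNNTGTNC were in 0 of these windows, beside 0.0659% and 0.388% of all windows. The 2 windows that held the RUNX letters are shown because they are the only such matches among the genes at both ends of the order, for IGSF1 (chrX:131289408-131289707, minus strand) and TMEM164 (chrX:110002413-110002712, plus strand), with the motif in capitals.
IGSF1: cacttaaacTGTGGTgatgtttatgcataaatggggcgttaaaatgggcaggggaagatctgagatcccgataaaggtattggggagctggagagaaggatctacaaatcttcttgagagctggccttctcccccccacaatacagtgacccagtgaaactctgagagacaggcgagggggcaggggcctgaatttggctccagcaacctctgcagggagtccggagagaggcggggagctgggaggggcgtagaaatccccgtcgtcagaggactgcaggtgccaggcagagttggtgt
TMEM164: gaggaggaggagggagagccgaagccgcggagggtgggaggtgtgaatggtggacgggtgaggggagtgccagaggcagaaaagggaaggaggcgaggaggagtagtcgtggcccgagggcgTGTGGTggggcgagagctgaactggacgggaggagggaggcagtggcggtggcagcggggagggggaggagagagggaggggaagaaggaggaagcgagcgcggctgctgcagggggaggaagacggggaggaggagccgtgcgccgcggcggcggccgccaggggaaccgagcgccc
A match is a string of letters and says nothing of binding. IGSF1 read 1463, 1461 and 1344 with both agents and 264, 249 and 285 in vehicle cells. TMEM164 read 2515, 2589.7 and 2387 with both agents and 739, 735 and 769.5 in vehicle cells.

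How the combined state compared with each agent alone was read gene by gene in the same fit. Against dox alone, 509 members were called (247 higher, 262 lower), beside 4.27% of all genes tested (2.04% higher and 2.24% lower). Against DHT alone, 4035 were called (1729 higher, 2306 lower), beside 33.5% (14.3% higher and 19.2% lower). These comparisons share the arrays with both agents. Against vehicle, dox alone had 3929 members called, beside 32.8% of all genes tested (16.1% higher and 16.7% lower), and DHT alone 916, beside 7.6% (4.5% higher and 3.1% lower). KLK11 averaged 781 with both agents and 1571 with dox alone (-1.01 log2, limma adjusted p = 2.92e-07), and stood at 145 with DHT alone and 221 in vehicle cells. MGP averaged 3102 with both agents and 4525 with dox alone (-0.54). Both were lower than with dox alone and still far above vehicle. HSPB8 averaged 1535 with both agents, 914 with dox alone, 579 with DHT alone and 355 in vehicle cells, so that the pair of agents gave the highest level (against dox alone 0.74, limma adjusted p = 2.67e-05).

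Among the other genes at the ends of the order, MYB and RERG were lower than with dox alone (-0.38 and -0.36 log2). PLLP, RAB27B, SELENBP1, CA5B, DRAM1 and EFHD1 were lower as well, with differences from dox alone of -0.71, -0.57, -0.47, -0.46, -0.40 and -0.32, and TP53INP1 was higher by 0.30. GREB1 (-0.18 ± 0.10), UPK1A (-0.21) and BCAS1 (-0.10) were among the 18 of these 30 genes whose difference from dox alone was not called, which does not show that the levels were alike. CA12, a membrane carbonic anhydrase, averaged 4628 with both agents, 2341 with dox alone, 2676 with DHT alone and 1583 in vehicle cells, higher than with either agent alone (0.99 against dox, 0.79 against DHT). IGFBP5, a binding protein of insulin-like growth factors, averaged 2017 with both agents, 4639 with dox alone, 1962 with DHT alone and 4858 in vehicle cells. Its level with both agents differed from that with dox alone by -1.20 on the log2 scale and from that with DHT alone by 0.05, of which the second was not called.

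A list joined the estrogen receptor gene with genes that estrogen raises in luminal cells. It had the largest share of members raised among the lists of 10 or more members. Of 31 members, 28 rose, 1 fell and 2 were not called, with a median change of 1.28 on the log2 scale, beside 16.6% of all genes tested called higher and a median of -0.02. The list was drawn up with earlier results of these data known, and 12 of its members had been named in them. The other 19 had 18 higher, 0 lower and 1 not called, with a median of 1.18. TFF1, a secreted trefoil peptide and classical estrogen target, read 21233, 22780.4 and 22725 with both agents, against 9547, 8639 and 9334 in vehicle cells (2.43-fold). PGR, the progesterone receptor, was not above background on any vehicle array (129, 119.6 and 135) and read 293, 321 and 262 with both agents, at least 1.97-fold higher. EGR3, an immediate early transcription factor, read 349.6, 359 and 324 with both agents, against 115, 112 and 118 in vehicle cells, none of them above background, and was at least 2.33-fold higher. All 3 genes, each picked by size of change in a list, had groups that did not overlap, as had 45.8% of all genes tested. PGR and EGR3 passed the filter only through the cells with both agents, so neither could have been counted as lowered. Of the 31 members, 27 were above background on all vehicle arrays. The members not called were TFF3 (0.09) and the potassium channel gene KCNK5 (0.04), named after their values were seen.

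The only member that fell was the estrogen receptor gene itself, which was listed as the receptor and not as an estrogen-raised gene. ESR1 read 2495, 2690.1 and 2157 in cells with DHT and dox, against 3826, 4574 and 4711 in vehicle cells, 1.79-fold lower (-0.84 ± 0.09 log2, SE, 3 arrays per group, limma adjusted p = 1.76e-07), with no overlap of the groups. Its means were 2838 with dox alone and 3479 with DHT alone. Of 20 members on the list of genes that estrogen lowers, 19 fell and 1 rose, with a median of -1.002, beside 20.2% of all genes tested called lower. UPK1A, BCAS1, IGFBP3 and TP53INP1 led those that fell. Leaving out 6 members named in earlier results, 13 of 14 fell and 1 rose (median -0.85). The one that rose was KRT13, a keratin of stratified epithelia, which read 355, 366 and 382 with both agents, against 140.0, 154 and 156 in vehicle cells (2.45-fold), above background on 2 of 3 vehicle arrays.

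**Figure D3:**
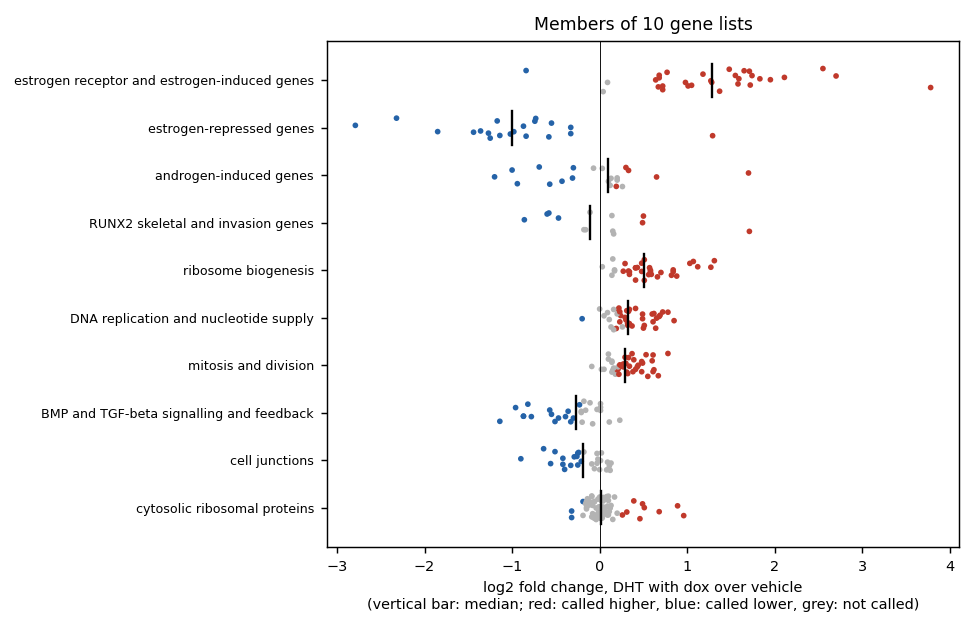
Each point is a measured member of a gene list, placed by its log2 fold change of DHT with dox over vehicle, with the median as a vertical bar and called genes in red (higher) or blue (lower). The estrogen-induced list has a median of 1.28 and the estrogen-repressed list -1.002, while androgen-induced genes spread on both sides of a median of 0.10 and cytosolic ribosomal proteins centre on 0.01.

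Genes that androgen raises in prostate cells moved both ways. Of 21 members, 5 rose, 8 fell and 8 were not called, with a median of 0.10 (16.6% of all genes tested were higher and 20.2% lower). With the arrays centred on their medians, 8 members rose. SGK1, a kinase that controls ion transport, read 836, 783 and 829.5 with both agents, against 256, 244 and 256 in vehicle cells, 3.24-fold higher, while its mean with DHT alone was 205. TSC22D3, a leucine zipper protein best known as a glucocorticoid target, read 1216, 1197 and 1131 with both agents, against 2452, 2746 and 2955 in vehicle cells, 2.3-fold lower. The stress-responsive gene NDRG1 and the prostaglandin receptor gene PTGER4 fell as well, with log2 changes of -0.998 and -0.94. Groups did not overlap in these 4 genes, which were picked by size of change, nor in 45.8% of all genes tested.

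Of 4 androgen-lowered members, 1 rose, 2 fell and 1 was not called, beside 16.6% of all genes tested called higher and 20.2% lower. So few members do not describe the list. UGT2B17, an enzyme that conjugates androgens for excretion, read 176, 186 and 187 with both agents, against 129.8, 139.9 and 125 in vehicle cells, where it was not above background, and was at least 1.24-fold higher. It was a member through the cells with both agents alone, and with a stricter filter on dim probes 0 members of the list rose. A second UGT2B17 probe averaged 151.4 with both agents and 134.1 in vehicle cells, a change of 0.17 that was not called. ACKR3, a scavenger receptor for the chemokine CXCL12, fell by 0.79, and PRKCA, a protein kinase C, fell by 0.27, a call that did not hold without 1 of several arrays, such as DHT with dox replicate 1 (-0.18, limma adjusted p = 0.181). CXCL12 itself read 569, 541 and 519 with both agents, against 188, 153 and 158 in vehicle cells (3.27-fold higher), and its signalling receptor CXCR4 read 215, 202 and 187, against 289, 320.1 and 306 in vehicle cells (1.52-fold lower). The ligand and both receptors thus moved in opposite directions, each with separate groups, as in 45.8% of all genes tested.

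The list of RUNX2 targets in bone and invasive cancer held 13 members, of which 3 rose, 4 fell and 6 were not called (median -0.11, and -0.47 with background subtracted). Of all genes tested, 16.6% were called higher and 20.2% lower. CXCL12 led those that rose. SOX9, the master factor of cartilage, read 206, 220.4 and 212 with both agents, against 408, 374 and 379.5 in vehicle cells, 1.82-fold lower. CXCR4 and SNAI2, above, were the next lowest. SNAI2 passed the filter only through vehicle cells, so it could not have been counted as raised. MMP9, a matrix protease (-0.11), the collagen gene COL1A1 (-0.16) and the bone sialoprotein gene IBSP (-0.18) were not called, and were named after their values were seen.

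Transcription factors of luminal identity mostly fell. Of 16 members, 9 fell, 4 rose and 3 were not called, with a median of -0.32 (-0.56 with background subtracted), beside 20.2% of all genes tested called lower and 16.6% higher. GRHL3, a factor of epithelial differentiation, read 194, 199 and 222 with both agents, against 671, 472 and 515 in vehicle cells (2.67-fold lower, and -0.85 on the log2 scale with the mean of its probes). The ETS factors ELF5, which drives the milk-secreting lineage, and ELF3 were 2.06-fold and 1.93-fold lower. FOXA1, which opens chromatin for steroid receptors, changed by -0.47, and GATA3, at 3993, 3522 and 3957 with both agents and 3790, 4078 and 3797 in vehicle cells, changed by -0.03 with overlapping groups. MYB, above, rose the most on this list.

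Nuclear receptors and their coregulators had 5 higher, 10 lower and 11 not called of 26 members (median -0.10). The shares among all genes tested were 16.6% higher and 20.2% lower. RARA, the retinoic acid receptor alpha, read 2093, 2117 and 2205 with both agents, against 912, 1061 and 1166 in vehicle cells (2.05-fold higher), and with PGR led the rise. TLE1, a corepressor, fell 1.82-fold. Among enzymes that make or break down steroids and retinoids, 4 rose, 11 fell and 5 were not called of 20 members (median -0.32). CYP1A1, an oxidase under the aryl hydrocarbon receptor, fell 2.26-fold. The ketosteroid reductases AKR1C3 and AKR1C2 fell 1.96-fold and 1.49-fold, and the multifunctional enzyme gene HSD17B4 1.55-fold. AKR1C3 and AKR1C2 are close paralogs, so that a probe may read both.

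Secreted products of luminal cells did not move as a block: 3 rose, 6 fell and 5 were not called of 14 members (median -0.09). The shares among all genes tested were 16.6% higher and 20.2% lower. SERPINA3, a protease inhibitor, read 910.0, 794 and 904 with both agents, against 309.8, 286 and 322 in vehicle cells (2.84-fold higher). APOD, a lipocalin that carries small lipids, read 1065, 1128 and 1227, against 2914, 3129 and 3041 in vehicle cells (2.66-fold lower). MUCL1, a small mucin of the breast, fell 2.18-fold against vehicle and was lower than with dox alone (-0.72 log2).

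Cell cycle genes rose broadly by small amounts. Of 41 members for DNA replication and nucleotide supply, 31 rose, 1 fell and 9 were not called (median 0.32), and of 44 for mitosis and division 31 rose, 0 fell and 13 were not called (median 0.29), beside 16.6% of all genes tested called higher. GINS3 and CDC45, parts of the replicative helicase, rose 1.8-fold and 1.71-fold, and MCM10 and the clamp loader RFC3 by 0.72 and 0.69 on the log2 scale. GINS3 read 1117, 1139.8 and 1025 with both agents, against 598, 619.5 and 607 in vehicle cells. CDC20, the activator of the anaphase-promoting complex, read 5681, 6170.4 and 5862 with both agents, against 3734, 3649 and 3707 in vehicle cells. CDCA3, the securin gene PTTG1 and the mitotic kinase gene AURKB rose by 0.78, 0.62 and 0.61. Groups did not overlap in any of these 8 genes, which were picked by the size of their change, beside 45.8% of all genes tested. All 8 were also called higher with dox alone than in vehicle cells, by 0.62 (CDC20) to 0.73 (CDCA3) on the log2 scale. Their differences between both agents and dox alone were not called, which does not show that the levels were alike. In bulk RNA, more cells in cycle and more transcript per cell cannot be told apart.

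Among 17 genes of the G1 phase, 12 rose, 3 fell and 2 were not called (median 0.33). Of all genes tested, 16.6% were called higher and 20.2% lower. Those that fell included CDK6, above, the pocket protein gene RBL2 (2.25-fold) and the kinase inhibitor gene CDKN2B (1.92-fold), both brakes on entry into the cycle. CDC25A, the phosphatase that activates CDK2, rose 1.79-fold. In the MYC and MYB family, 5 rose, 3 fell and 4 were not called of 12. MYC read 1577, 1566 and 1471 with both agents, against 559.9, 482 and 493 in vehicle cells (3.01-fold, and 1.53 on the log2 scale by a second probe). MYBL1 read 513, 595 and 514, against 183, 190.0 and 194 in vehicle cells, and MYCN went the other way, at 193, 242 and 197 with both agents and 545, 491 and 505 in vehicle cells (2.45-fold lower). MYCN was also lower than with dox alone (-0.65) and than with DHT alone (-0.65).

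Nucleolar factors that build ribosomes mostly rose. Of 34 members for ribosome biogenesis, 29 rose, 0 fell and 5 were not called (median 0.51), beside 16.6% of all genes tested called higher, and 0 of these 34 had been named in earlier results. RRS1 read 2119, 1981 and 1834 with both agents, against 839, 875 and 689 in vehicle cells (2.48-fold), and NOP16 1377, 1679 and 1343, against 574, 637 and 609 in vehicle cells (2.41-fold). LYAR and BOP1, nucleolar proteins of ribosomal RNA processing, rose by 1.13 and 1.07. Of 72 cytosolic ribosomal protein genes, 9 rose, 3 fell and 60 were not called (median 0.01), and with the mean of each gene's probes 20 rose. RPL36A (1.94-fold, and 0.40 on the log2 scale with the mean of its probes) and RPS7 (1.86-fold) were the most raised, RPL29 and the paralog RPL39L followed, and near-identical pseudogenes make single genes of this family uncertain. These lists were not tested against each other.

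Of 76 mitochondrial ribosomal protein genes, 32 rose, 2 fell and 42 were not called (median 0.18), beside 16.6% of all genes tested called higher and 20.2% lower. The most raised were MRPL12 (1.63-fold), MRPS17 (1.55-fold), MRPL14 (1.5-fold) and MRPL4 (1.49-fold). Of 71 genes of the respiratory chain and ATP synthase, 8 rose, 6 fell and 57 were not called (median 0.02), a share below that of all genes tested. NDUFA9 and NDUFB6, subunits of complex I, rose by 0.33 and 0.28. NDUFB9 rose by 0.30 with overlapping groups, a call that did not hold without vehicle replicate 3 (0.22, limma adjusted p = 0.109) or DHT with dox replicate 1 (0.23, limma adjusted p = 0.101). SDHA, of complex II, fell by 0.32, but changed by -0.07 with the mean of its probes and was then not called.

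Genes of amino acid and polyamine supply rose in part. Of 28 genes of amino acid supply and ATF4 stress, 11 rose, 4 fell and 13 were not called (median 0.12). The shares among all genes tested were 16.6% higher and 20.2% lower. SLC3A2, the heavy chain that pairs with SLC7A5, read 2546, 2695 and 2619.6 with both agents, against 1055, 1074 and 996 in vehicle cells (2.52-fold), and the secreted glycoprotein gene STC2 4709, 5223 and 4755, against 1846, 1764 and 2068 in vehicle cells (2.59-fold). DDIT4, an inhibitor of mTORC1, fell 2.09-fold. Of 13 polyamine genes 6 rose, 2 fell and 5 were not called. The synthesis genes AMD1, SRM and ODC1 rose 1.95-fold, 1.67-fold and 1.49-fold, and SAT1, which acetylates polyamines for breakdown, fell 1.55-fold. Of 34 aminoacyl tRNA synthetase genes, 13 rose, 4 fell and 17 were not called, with YARS1 (0.78), VARS1 (0.74, and 0.46 with the mean of its probes), FARSA (0.61) and MARS1 (0.44) the most raised.

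Chaperone genes rose where they were called. Of 23 heat shock and chaperone genes, 13 rose, 0 fell and 10 were not called (median 0.27). FKBP4, a partner of HSP90 in steroid receptor complexes, read 3073, 2818 and 2853 with both agents, against 1364, 1441 and 1429.9 in vehicle cells (2.06-fold), and HSPH1 and HSPA4L, nucleotide exchange factors of HSP70, rose by 0.63 and 0.63. Of 24 genes of the unfolded protein response, 10 rose, 4 fell and 10 were not called. XBP1, its main transcription factor and an estrogen target, rose 1.7-fold and the chaperone gene SDF2L1 1.76-fold. CREB3L2 and CREB3L4, membrane-bound factors of secretion, fell 2.07-fold and 1.81-fold. Of 41 proteasome genes, 11 rose, 2 fell and 28 were not called, beside 16.6% of all genes tested called higher and 20.2% lower. PSMG4, PSMG1, PSME3 and PSMB7 rose by 0.64, 0.51, 0.64 and 0.39, and PSMG4 by 0.28 with the mean of its probes.

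**Figure D4:**
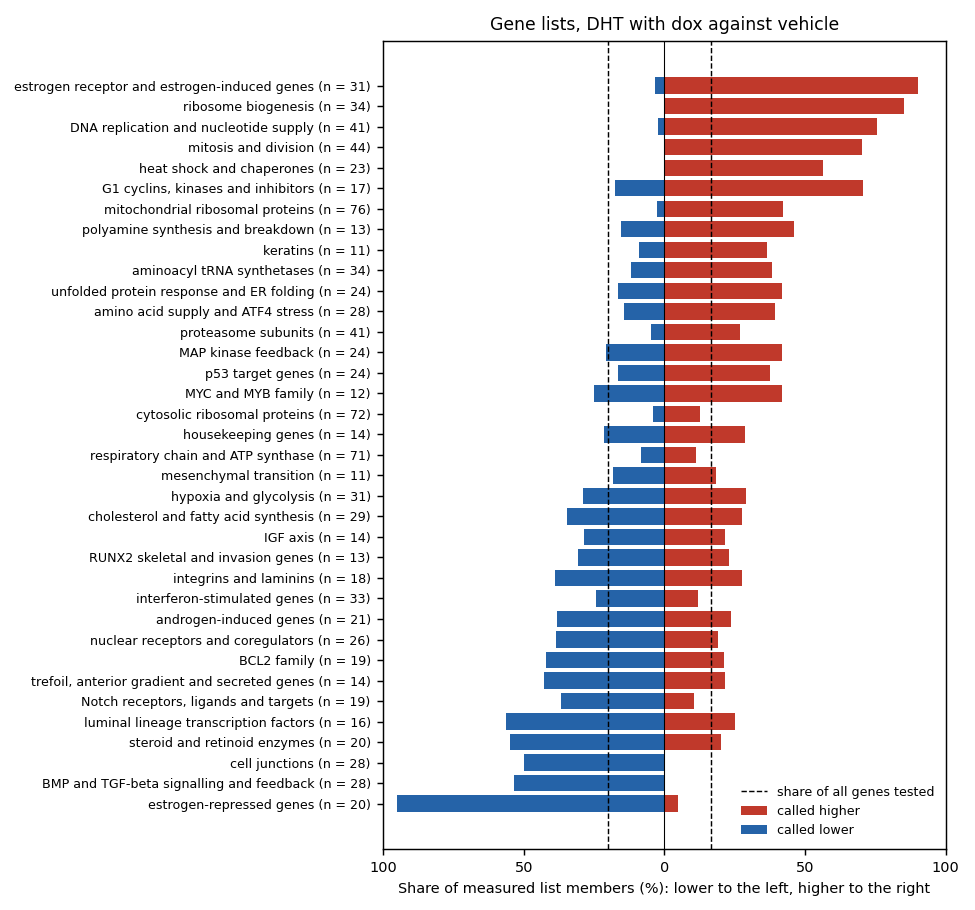
Bars give, for each gene list with at least 10 measured members, the share called higher (red, to the right) and lower (blue, to the left) in DHT with dox against vehicle. Dashed lines mark the shares among all genes tested, 16.6% higher and 20.2% lower, and the estrogen-induced and estrogen-repressed lists lie at opposite ends.

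Genes of bone morphogenetic protein (BMP) and TGF-beta signalling fell where they were called. Of 28 members, 0 rose, 15 fell and 13 were not called, with a median of -0.27 (-0.56 with background subtracted), beside 20.2% of all genes tested called lower. The inhibitors of differentiation are direct BMP targets. ID1 read 1621, 1384 and 1552 with both agents, against 3249, 3562 and 3214 in vehicle cells (2.2-fold), and ID2 and ID3 were 1.83-fold and 1.83-fold lower. A second, dimmer ID1 probe changed by -0.06 and was not called, and with the mean of both ID1 changed by -0.60. The activin subunit gene INHBB fell 1.94-fold. Of 19 Notch members, 2 rose, 7 fell and 10 were not called, beside 16.6% of all genes tested called higher and 20.2% lower. HEY2, above, was among those that rose, whereas HES1 fell 1.67-fold and HES2 1.44-fold. HEY1, above background on 0 of 3 arrays with both agents, fell at least 1.29-fold. It passed the filter only through vehicle cells and could not have been counted as raised.

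Genes under the ERK kinases moved both ways: 10 rose, 5 fell and 9 were not called of 24 (median 0.00). Of all genes tested, 16.6% were called higher and 20.2% lower. The sprouty gene SPRY1, an inhibitor of receptor tyrosine kinases, read 229, 187 and 278 with both agents, against 549.5, 654 and 588 in vehicle cells (2.61-fold lower). EGR3, above, the ETS factor ETV5 (1.9-fold, and 0.59 on the log2 scale with the mean of its probes) and the ERK phosphatase gene DUSP5 (1.74-fold) rose. In the epidermal growth factor family, 1 of 8 members rose, 3 fell and 4 were not called. The ligand gene TGFA read 585, 512 and 501 with both agents, against 279, 254 and 250.4 in vehicle cells (2.04-fold higher). The receptor genes ERBB2 and ERBB3 fell 1.97-fold and 1.87-fold, ERBB2 to 878, 1018 and 876 with both agents, against 1781, 1967 and 1714 in vehicle cells. ERBB3 rested on 1 of 3 probes: the others changed by -0.10 and 0.01 and were not called, and with the mean of all 3 it changed by -0.33. The adaptor GRB7, a neighbour of ERBB2, fell 1.52-fold. In the insulin-like growth factor axis, 3 rose, 4 fell and 7 were not called of 14. IGFBP3 and IGFBP5 (2.39-fold) fell, while IGFBP4 (2.01-fold) and the receptor substrate gene IRS1 (1.76-fold) rose.

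Genes of cell death and stress gave mixed counts. Of 24 p53 targets, 9 rose, 4 fell and 11 were not called, beside 16.6% of all genes tested called higher and 20.2% lower. The BH3-only gene PMAIP1 read 233, 246 and 247 with both agents, against 135, 120.3 and 151 in vehicle cells. It was above background on 1 of 3 vehicle arrays. Its mean in vehicle cells was below the limit, so it could not have been counted as lowered. AEN and GADD45A rose 1.62-fold and 1.61-fold. TP53INP1, above, was the target that fell most. Of 19 BCL2 family members, 4 rose, 8 fell and 7 were not called (median -0.18). BCL2L1, which blocks apoptosis, read 2242, 1909.9 and 1809 with both agents, against 3874, 4104 and 3701 in vehicle cells (1.97-fold lower), BIK, which promotes it, fell 1.79-fold, and BOK rose 1.82-fold.

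Of 33 interferon-stimulated genes, 4 rose, 8 fell and 21 were not called, a share like that of all genes tested (16.6% higher and 20.2% lower). HERC5, the ligase for ISG15, rose 2.28-fold, and UBE2L6, the conjugating enzyme of the same pathway, fell 1.99-fold, while MX1 and IFIH1 changed by -0.59 and -0.57. Of 31 genes of hypoxia and glycolysis, 9 rose, 9 fell and 13 were not called. EPAS1, the hypoxia-inducible factor 2 alpha, read 1055, 1206 and 1102 with both agents, against 2049, 2011 and 2248 in vehicle cells (1.88-fold lower), PFKP rose 1.75-fold (0.44 on the log2 scale with the mean of its probes) and HK2 fell 1.75-fold. Of 29 genes of cholesterol and fatty acid synthesis, 8 rose, 10 fell and 11 were not called. SREBF1, the factor that drives fatty acid synthesis, fell 1.79-fold (-0.50 on the log2 scale with the mean of its probes). MVD and FDPS, enzymes of the mevalonate pathway, rose by 0.52 and 0.43 over vehicle and by 0.59 and 0.44 over dox alone, and the desaturase gene FADS1 rose by 0.47 over vehicle.

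Genes of cell junctions fell where they were called. Of 28 members, 0 rose, 14 fell and 14 were not called (median -0.19), beside 20.2% of all genes tested called lower. CGN, the tight junction protein cingulin, read 1447, 1389.7 and 1244 with both agents, against 2187, 2704 and 2721 in vehicle cells (1.86-fold lower). The desmosomal genes PPL and DSP and the claudin gene CLDN3 fell, with log2 changes of -0.64, -0.51 and -0.56. DSP was also lower than with dox alone (-0.69). Of 18 integrin and laminin genes, 5 rose, 7 fell and 6 were not called. TNS3 led those that fell, followed by ITGB4 (1.54-fold), PXN (1.45-fold) and LAMB2 (1.43-fold). ITGB4 changed by -0.26 with the mean of its probes, and PXN by -0.34 without vehicle replicate 2. Of 11 mesenchymal genes, 2 rose, 2 fell and 7 were not called, near the shares among all genes tested (16.6% higher and 20.2% lower). CD44 rose by 0.46 (0.28 with the mean of its probes), ACTA2 by 0.29, and S100A4 fell by 0.28, a call that did not hold without vehicle replicate 2 (-0.22, limma adjusted p = 0.09) or DHT with dox replicate 2 or 3.

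Smaller families held some of the widest changes. Of 11 keratins, 4 rose, 1 fell and 6 were not called, beside 16.6% of all genes tested called higher and 20.2% lower. KRT16, of activated epidermis, was not above background in vehicle cells (127, 142 and 132) and read 286, 270.1 and 245 with both agents, at least 1.81-fold higher. Its fitted change was 0.51 with the mean of its probes, against 1.00. KRT18 rose by 0.30, and KRT4 fell at least 1.07-fold to a level below background. KRT16 passed the filter only through the cells with both agents and KRT4 only through vehicle cells. Neither could have been counted in the other direction. Of 5 uroplakins 3 fell and 2 were not called: beside UPK1A, UPK2 read 721, 757 and 824 with both agents, against 1739, 1737 and 1661 in vehicle cells (2.23-fold), and UPK3B fell 1.79-fold. Of 3 kallikreins 2 rose, KLK11 and KLK6, the second at 669, 616 and 679 with both agents, against 263, 262 and 229 in vehicle cells (2.61-fold, and 0.76 on the log2 scale with the mean of its probes). Among 4 carbonic anhydrases CA12 rose 2.92-fold, CA2 rose by 0.27 and CA5B fell, and 1 was not called.

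Reference genes and markers of other cell types were checked the same way. Of 14 genes often used as references, 4 rose, 3 fell and 7 were not called (median 0.03). The shares among all genes tested were 16.6% higher and 20.2% lower. HPRT1, TUBB and PPIA rose by 0.48, 0.46 and 0.35 and B2M fell by 0.34 (-0.17 with the mean of its probes). Of 12 fibroblast markers 5 were members, of which 1 rose, and they summed to 1490 to 1684 with both agents and 1406 to 1553 in vehicle cells. Of 10 immune markers with a probe 3 were members and none was called, and the T cell genes CD3D and CD3E were at background in both groups. The 1 endothelial member of 8 was not called. Of 10 neuroendocrine markers with a probe 2 were members and both rose, at 1625 to 1859 with both agents and 1261 to 1541 in vehicle cells, with CHGA at background. Of 6 basal markers with a probe 3 were members, with 1 higher and 1 lower, and KRT5 and KRT14 were at background.

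Whether the combined change differed from the sum of the single changes was tested as the interaction of DHT and dox. Few genes passed: 35 members, 16 with an estimate above 0 and 19 below (0.132% and 0.157% of all genes tested, 0.289% together). An unadjusted limma p under 0.05 was found for 1173 of 11717 members, beside 1220 of all 12122 genes tested. The interaction is less precise than the combined change, with a median SE of 0.126 against 0.089 on the log2 scale, and the 5th and 95th percentiles of the estimates were -0.26 and 0.27. Without 1 array the count ran from 9 to 52. A gene that missed the threshold is not shown to have followed the sum.

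The 6 genes with the lowest estimates were raised by DHT alone and lay near or below vehicle with both agents. CLDN1, a claudin of tight junctions, averaged 159 ± 13.1 with both agents, 151 with dox, 289 with DHT and 161 ± 5.60 in vehicle cells (SD, n = 3 each). Its interaction was -0.77 ± 0.12 (log2, SE, limma adjusted p = 0.0124), and its combined change of -0.02 was not called. EPAS1 averaged 1121 with both agents, 817 with dox, 4777 with DHT and 2103 in vehicle cells (interaction -0.72). VTCN1, an inhibitor of T cells, averaged 175 with both agents, 144 with dox, 609 with DHT and 314 in vehicle cells (-0.68). In these 3 genes the arrays with DHT alone lay above all others. CXCR4 had its lowest level with both agents, at 201, beside 262 with dox, 383 with DHT and 305 in vehicle cells (-0.71). PLEKHS1 (-0.69) and UPK3A (-0.75), the second above background on 0 of 3 arrays with both agents, followed the pattern of CLDN1 with DHT. The calls of EPAS1 and CXCR4 held under all 22 alternatives that gave a value. PLEKHS1 lost its call under 7, among them background subtraction (-0.50, limma adjusted p = 0.498), and VTCN1 under 3, with an estimate of -0.25 after background subtraction (limma adjusted p = 0.812). CLDN1 and UPK3A lost theirs with background subtracted.

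The 6 genes with the highest estimates had their lowest mean with DHT alone. DUSP19, a dual-specificity phosphatase, averaged 1271 ± 109 with both agents, 1264 with dox, 998 with DHT and 1758 ± 160.4 in vehicle cells (SD, n = 3 each, interaction 0.83, limma adjusted p = 0.0124). CEP19, a ciliary protein, averaged 1644 with both agents, 1527 with dox, 1187 with DHT and 1977 in vehicle cells (0.84), and BMS1P1, a pseudogene, had an estimate of 0.89. The tRNA-modifying enzyme gene YRDC (0.80), the p53 target ZMAT3 (0.76) and a locus of 28S ribosomal RNA, RNA28SN5 (1.15), had overlapping groups for both agents against vehicle. Repeated copies make the RNA28SN5 probe uncertain, and the calls of YRDC, ZMAT3 and RNA28SN5 were lost under 7, 13 and 12 of 22 alternatives. CEP19 had an estimate of 0.33 with the mean of its probes (limma adjusted p = 0.26), BMS1P1 lost its call under 2 alternatives, and that of DUSP19 held under all 22.

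**Figure D5:**
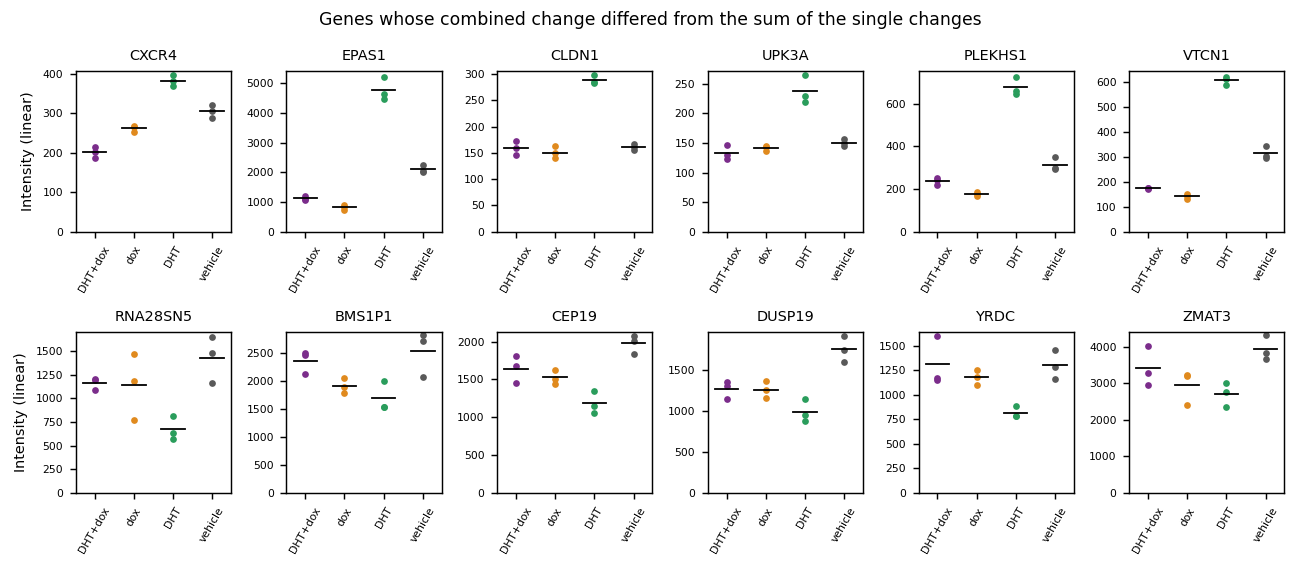
Points give the intensity on each array and lines the group means, from 0, for the 6 genes with the lowest and the 6 with the highest interaction estimate among those called, in the order DHT with dox, dox, DHT and vehicle. In the upper row the arrays with DHT alone are the highest, and in the lower row their mean is the lowest.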

How the data were processed

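Total RNA of 12 cultures was read on single-colour Illumina bead arrays. The deposited values were linear intensity, and the submitters' processing notes name GenomeStudio as the tool. Its version, the normalization and the background step were not given in the sources used here. The sorted columns differed by at most 0.8 units, so the values were taken as quantile-matched, floored at 20 (0 values lay below) and log2-transformed. Neither slides nor scan dates were known.

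Of 47230 probes, 30113 had 1 gene symbol, 8 several and 17109 none in the platform's annotation. Of those with 1 symbol, 30074 were named through RefSeq (GRCh38.p14, for names and promoter windows) and 39 kept the platform's symbol. As background limit served the 95th percentile of 640 probes, read on every array, for 535 olfactory receptor, taste receptor, keratin-associated protein and defensin genes. A gene was read by its brightest probe above the limit in a group mean. Where a gene was above the limit on 0 arrays of a group, its fold is a bound, taken on each array against the limit or, if higher, against the dim probe. In 24 of 3230 genes with more than 1 such probe, calls of the probes disagreed in direction.

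In R 4.3.3, limma 3.58.1 (lmFit, eBayes with a trend) estimated 4 group means from the 12 arrays. Two-sided p-values were adjusted by Benjamini-Hochberg over 12122 genes, at a threshold of 0.05. Nothing in the files says how the cultures were kept apart, so the spread may be partly technical. Tables used pandas 2.3.3 and numpy 2.4.6 under Python 3.11.15, and plots matplotlib 3.10.9. On simulated data, 50 of 50 genes were called at each of 1.5-fold and 2-fold higher or lower in DHT with dox against vehicle, with 16 calls among the others of 12122. The simulated noise was normal and independent between genes, and no other gene or group was changed. Real values differ in this, so these counts do not carry over to them.

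Genes named in the text were, among called genes with groups that did not overlap, the 15 with the highest and the 15 with the lowest change. To these came up to 4 called members per list by size of change, 9 defining genes whatever their call, and the 6 highest and 6 lowest called interactions. The members, gene lists and rules were chosen with earlier results of these data known. Alternatives left out each array, or changed the probe rule, filter, scaling, background, blocking, trend, weights or arrays in the fit.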

Additional observations from a re-analysis of the deposited data

Results flagged for a closer look

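For 15 named genes the effect of DHT differed between cells with dox and cells without it, by limma's interaction term at an adjusted p of 0.05. Each estimate is the DHT change with dox minus the DHT change without it, on the log2 scale. Above 0 were RNA28SN5 (1.15), BMS1P1 (0.89), CEP19 (0.84), DUSP19 (0.83), YRDC (0.8), ZMAT3 (0.76) and ACKR3 (0.46). Below 0 were CLDN1 (-0.77), UPK3A (-0.75), EPAS1 (-0.72), CXCR4 (-0.71), PLEKHS1 (-0.69), VTCN1 (-0.68), IGFBP4 (-0.64) and EFHD1 (-0.57). ACKR3, the scavenger receptor for CXCL12, averaged 2482 with both agents, 1832 with dox, 4215 with DHT and 4290.2 in vehicle cells. IGFBP4 averaged 2022 with both agents, 2045 with dox, 1554 with DHT and 1005 in vehicle cells. EFHD1 averaged 629 with both agents, 788 with dox, 2175 with DHT and 1829.9 in vehicle cells. Of 22 alternatives that gave a value (21 for CLDN1 and UPK3A), the call was lost under 11 for ACKR3, 10 for EFHD1 and 1 for IGFBP4, and under 13 for ZMAT3, 12 for RNA28SN5, 7 for YRDC, 7 for PLEKHS1, 3 for VTCN1, 2 for BMS1P1 and 1 each for CEP19, CLDN1 and UPK3A. It held under all 22 for CXCR4, EPAS1 and DUSP19.

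Probes without a gene name also carried signal, outside every comparison of genes. Of 17109 such probes, 5580 were above background in at least 1 group, and 807 of those (14.5%) were called in DHT with dox against vehicle by limma, 451 higher and 356 lower, 151 of them at least 1.5-fold.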

How the results depend on the processing

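The count of genes called in DHT with dox against vehicle was 4460 and ran from 3804 to 4470 when 1 array was left out. The other alternatives gave 3875 (a stricter filter, over 7647 genes) to 4493 (arrays centred on their medians, with 53.4% of calls higher, against 45.1%). At least 1.5-fold the count of 835 became 2005 with background subtracted, a step that by construction widens the folds of dim probes. The interaction count of 35 became 18 with background subtracted and ran from 9 to 52 without 1 array, at 9 without dox replicate 3, 14 without DHT replicate 2, 16 without dox replicate 1 or DHT replicate 1, 17 without vehicle replicate 2, and 18 and 21 without DHT with dox replicates 3 and 2. The cause was not tested. YRDC, at 0.00 with its brightest probe, was 0.35 with the mean of its probes (limma adjusted p = 0.000304). Of 172 named genes called, 6 lost the call under at least 1 of 23 alternatives: PRKCA, SDHA, NDUFB9, S100A4, RUNX2 and CEP19. FKBP5 gained one with median centring (0.24, limma adjusted p = 0.0371), RNA28SN5 with the mean of probes or only the arrays compared, and ZMAT3 without DHT with dox replicate 3. Of 85 list counts, 23 moved by over 1.5 times under at least 1 alternative. Arrays of like number did not deviate together (correlations from -0.121 to 0.208, and -0.009, -0.034 and 0.016 between DHT with dox and vehicle), so the numbers were not taken to pair them. With the replicate number as a block, 4412 genes were called for the combined change and 50 for the interaction. Signal near background limits the folds of dim genes, and 3 arrays per group limit small interactions.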
